A study of Mus musculus with 26 samples.

Results

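The tumor necrosis factor (TNF) superfamily consists of trimeric ligands and the cell surface receptors that bind them. Ligand binding clusters the receptors, which then recruit TRAF adaptors that lead to NF-kB and MAP kinase activation, or, through a death domain, adaptors that can start cell death, while decoy receptors bind ligand without signalling. Macrophages use several of these genes to talk to T and B cells, among them the receptor CD40 and the ligand BAFF (Tnfsf13b), and lipopolysaccharide (LPS), a bacterial cell wall component sensed through TLR4, is known to switch on some of them through NF-kB and AP-1.

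The genes described here were the protein-coding genes of mm10 whose symbol begins with Tnfsf or Tnfrsf, together with Cd40, Cd27, Cd70, Fas, Fasl, Lta, Ltb and Ltbr, but without Tnf. This rule gave 40 of 21900 protein-coding genes: 16 ligands, 15 TRAF-binding receptors, 5 death domain receptors, 3 decoy receptors and 1 other receptor. Chromatin immunoprecipitation with sequencing (ChIP-seq) was done in stable lines of RAW264.7, a mouse macrophage cell line, in which doxycycline induces either Nur77 carrying an HA tag (the orphan nuclear receptor Nr4a1, here called the Nur77 line) or GFP (the GFP line). Each is 1 stable line, and cells of every group received 50 ng/ml doxycycline for 18 h.

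HA-Nur77 was precipitated from the Nur77 line after 1 h with 500 ng/ml LPS (3 libraries) and without LPS (3 libraries), from cells fixed with 2 mM DSG and then 1% formaldehyde. H3K27ac (histone H3 acetylated at lysine 27), a mark of active promoters and enhancers, and RNA polymerase II (Pol II) were each precipitated after formaldehyde alone, with 2 libraries for each of 4 groups: Nur77 line after LPS, Nur77 line untreated, GFP line after LPS and GFP line untreated. The 4 input libraries, 1 a group, were used only to mark regions that input also calls. No HA library of the GFP line was among the libraries analysed here, so the HA peaks have no HA background from cells without the tagged protein. The peak lists do not measure how much HA-Nur77 the cells made, and nothing in the labels says that replicates came from separate cultures, so p-values measure the spread between these libraries.

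Depth in mapped tags (in M, for mega) was 6.41 to 18.25 M in HA libraries, 11.88 to 23.12 M in Pol II libraries and 22.33 to 28.36 M in H3K27ac libraries. Of 8 macrophage markers, 8 had an H3K27ac peak and 7 had a Pol II peak in every library, Mrc1 being the exception, and none of 4 fibroblast markers had either. Other lists had some peaks: in every library of both targets 3 of 5 T cell markers (Cd3d, Cd4 and Lck, but not Cd3e or Cd8a) and 2 of 4 neural markers did. Of 4 epithelial markers, Epcam and Krt18 had none, and the other 2, Krt8 and Cdh1, had an H3K27ac peak in every library. A Pol II peak in every library was seen at 1 of the 4 in each group except the Nur77 line after LPS (0). In each group 2 of 5 B cell markers had a Pol II peak in every library. For H3K27ac 2 of 5 did, except in the Nur77 line after LPS (1). Summed Pol II tags over the T cell list ran from 484 to 572 after LPS and 821 to 1545 untreated in the Nur77 line, and from 578 to 977 after LPS and 1203 to 1608 untreated in the GFP line, and the part of this in the results was not tested. Over the 8 macrophage markers the summed H3K27ac tags ran from 6975 to 7835 after LPS and 10037 to 10193 untreated in the Nur77 line. In the GFP line they ran from 8812 to 9042 after LPS and 10805 to 10873 untreated. These sums and those of the T cell list are deposited tags, without the scaling between libraries that the results below use. That scaling divided H3K27ac tags by 0.81 to 0.89 in LPS libraries and by 1.14 to 1.18 in untreated ones. The part of these differences in the results below was not tested. HA peaks averaged 427 bases in LPS replicate 3 and 343 bases in untreated replicate 3, against 827 to 1017 bases in the other HA libraries. In bulk cells, fewer cells carrying a signal and less signal in each cell cannot be told apart.

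Values below are the normalized tags of all peaks that overlap a gene's span plus 1 kb on either side, per 10 M mapped tags and after scaling between libraries ("tags"). Genes with a peak in every library of a target were tested with limma on log2(tags + 1) across all protein-coding genes, with Benjamini-Hochberg adjustment, and an adjusted p under 0.05 counts as changed. Fold changes are on that log2 scale and are given with their standard error (SE).

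The family was divided by whether it had any signal at all. Among the 40 genes, 9 had no peak for any target in any library: the ligand genes Cd70, Fasl, Tnfsf8, Tnfsf11 and Tnfsf15 and the receptor genes Tnfrsf4, Tnfrsf11b, Tnfrsf13c and Tnfrsf25. Another 9 had a peak in every library of all 3 targets, namely the receptors Cd40, Ltbr, Tnfrsf1b, Tnfrsf8 and Tnfrsf11a and the ligands Tnfsf12, Tnfsf13b, Tnfsf18 and Tnfsfm13. Pol II peaks lay over 21 genes in all 8 libraries, over 7 in some and over 12 in none. H3K27ac peaks lay over 22 genes in all 8 libraries, over 5 in some and over 13 in none. HA peaks lay over 12 genes in all 6 libraries, over 11 in some and over 17 in none. Scattered peaks only were seen at the death receptor Tnfrsf10b (2 Pol II and 1 H3K27ac library), at Tnfrsf18, the GITR receptor (1 Pol II library), at Tnfrsf19 (1 HA library) and at the death domain receptor Tnfrsf21 (5 Pol II and 7 H3K27ac libraries), none of them above 17.0 tags. The share of the family that could be tested, 52.5% for Pol II and 30% for HA, compares with 54.3% and 23.3% of all protein-coding genes.

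Tnfsf4 (OX40L) and Tnfsf10 (TRAIL), ligands of a TNF family receptor on T cells and of death receptors, had an HA peak in all 6 libraries and no Pol II peak in any of 8. Over all genes, 126 of the 5103 with an HA peak in every library, or 2.47%, had no Pol II peak. An annotated start was present in the RefSeq promoter table for 31 of the 40 genes. A Pol II peak covered the start in every library for 12 of them (38.7%, against 47.1% of all 17492 genes with a start), an H3K27ac peak for 13 (41.9% against 46.8%) and an HA peak for 2, Ltbr and Tnfsf13b (6.45% against 4.29%).

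Of the promoter windows with an HA peak, 5 are printed here: 4 that hold a match to the AP-1 motif, spelled TGANTCA and read on both strands, and at which the HA values of LPS and untreated libraries, given further on, did not overlap, and 1 without a match. The sites over the Fas, Tnfrsf9 and Tnfsf14 windows were not tested for a difference with LPS, since not every library had a peak there. Those over the Tnfsf13b and Ltbr windows did not pass, though the Tnfsf13b site did with the replicate number as a block in the fit. Each window runs from 250 bases before to 50 bases after an annotated start (RefSeq, GRCm38.p6, 5′ to 3′ on the gene's strand), and capitals mark motif matches. The windows of Fas at chr19:34290409-34290708 (plus strand), Tnfrsf9 at an internal start at chr4:150927749-150928048 (plus), Tnfsf14 at chr17:57194132-57194431 (minus) and Tnfsf13b at chr8:10006383-10006682 (plus) hold AP-1 matches. That of Ltbr at chr6:125313836-125314135 (minus) has an HA peak in all 6 libraries and no match.
Fas: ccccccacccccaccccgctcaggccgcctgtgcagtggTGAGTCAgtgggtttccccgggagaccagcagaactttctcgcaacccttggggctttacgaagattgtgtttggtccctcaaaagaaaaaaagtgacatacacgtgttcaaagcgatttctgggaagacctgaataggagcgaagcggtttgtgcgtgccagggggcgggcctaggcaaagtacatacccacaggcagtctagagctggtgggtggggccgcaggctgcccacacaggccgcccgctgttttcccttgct
Tnfrsf9: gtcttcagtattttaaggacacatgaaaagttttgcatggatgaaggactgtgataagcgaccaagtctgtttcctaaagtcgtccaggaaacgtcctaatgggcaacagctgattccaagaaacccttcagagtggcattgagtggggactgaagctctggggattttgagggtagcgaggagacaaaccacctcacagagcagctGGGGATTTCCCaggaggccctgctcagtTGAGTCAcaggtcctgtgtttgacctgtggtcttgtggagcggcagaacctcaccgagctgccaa
Tnfsf14: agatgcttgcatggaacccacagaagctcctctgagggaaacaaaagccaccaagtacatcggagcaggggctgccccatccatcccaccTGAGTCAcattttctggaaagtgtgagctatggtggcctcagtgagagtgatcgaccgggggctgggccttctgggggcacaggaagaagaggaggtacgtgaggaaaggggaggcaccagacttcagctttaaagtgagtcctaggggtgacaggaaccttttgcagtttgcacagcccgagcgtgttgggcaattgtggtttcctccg
Tnfsf13b: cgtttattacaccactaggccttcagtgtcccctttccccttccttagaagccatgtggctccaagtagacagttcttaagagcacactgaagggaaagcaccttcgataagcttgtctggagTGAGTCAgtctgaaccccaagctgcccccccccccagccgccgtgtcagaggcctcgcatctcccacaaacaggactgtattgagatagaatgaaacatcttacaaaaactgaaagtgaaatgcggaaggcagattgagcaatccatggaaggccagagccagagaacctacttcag
Ltbr: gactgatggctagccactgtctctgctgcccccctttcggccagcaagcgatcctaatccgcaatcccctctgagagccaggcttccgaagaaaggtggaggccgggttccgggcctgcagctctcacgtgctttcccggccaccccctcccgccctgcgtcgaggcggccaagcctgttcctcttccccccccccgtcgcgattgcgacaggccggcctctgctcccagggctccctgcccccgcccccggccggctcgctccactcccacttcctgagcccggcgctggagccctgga

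The AP-1 letters stand in capitals in the first 4 of these sequences, and the first capital run of the Tnfrsf9 window is a pair of overlapping matches to the 10-letter NF-kB consensus. Of the family's 8 windows with an HA peak in at least 3 libraries, 6 held TGANTCA: those of Fas, Tnfrsf9, Tnfsf13 and Tnfsf14 and a pair of overlapping Tnfsf13b windows that share 1 match. The windows of Ltbr and Tnfrsf23 had none. Among all 3284 protein-coding windows with such HA peaks 222 held it (6.76%), and among all 21263 windows 6.99% did. Among the family's other windows, that of Tnfrsf8 had a match. The Nur77 response element spelled AAAGGTCA was in none of the family's 35 windows and in 1.3% of all windows, or 2.22% of those with HA peaks. NF-kB matches were in the windows of Ltb, Tnfrsf8 and Tnfrsf9, and in 4.81% of all. A match is a description of letters and not a shown binding site.

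Among the TRAF-binding receptors, Cd40, Tnfrsf1b and Tnfrsf8 carried more Pol II after LPS in both lines, as did the ligands Tnfsf9, Lta and Ltb. In the Nur77 line 6 of 21 tested members carried more Pol II after LPS and 1 less (24.8% of 11890 genes changed, 12.1% upward and 12.7% downward), with a median member difference of 0.04 on the log2 scale against 0.01 for all genes. In the GFP line 7 carried more and 0 less by limma (14.0% of genes changed, 7.78% upward and 6.22% downward), with a median of 0.93 against 0.01, and 11 had an unadjusted p under 0.05. By role, the changed genes were 3 of 9 TRAF-binding receptors, 3 of 8 ligands and 1 of 2 decoy receptors in the Nur77 line, and 4 of 9 TRAF-binding receptors and 3 of 8 ligands in the GFP line. These counts and medians are over genes, and some genes share a region, so values repeat. Lta and Ltb were counted from the same region (3.65 for each in the GFP line). Tnfsf12, Tnfsf13 and Tnfsfm13 each stood at 1.41 there, with 9924 tags in GFP LPS replicate 2 and 1502 in replicate 1. The GFP median of 0.93 includes these repeated values.

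Cd40 (chr2:165055614-165071654), the receptor through which T cells activate macrophages, had 1660.0 and 2720.1 Pol II tags after LPS, against 140.1 and 105 untreated, in the Nur77 line. It had 2548 and 2120.4 tags after LPS, against 121 and 88.8 untreated, in the GFP line. Every LPS library stood above every untreated one, and the log2 difference was 4.12 ± 0.29 (SE, limma adjusted p = 0.000476) in the Nur77 line and 4.47 ± 0.29 (adjusted p = 0.000482) in the GFP line, with n = 2 libraries a group. Pol II covered 17.6 kb on average after LPS and 2.21 kb untreated in the Nur77 line, and 18.0 kb against 1.71 kb in the GFP line, so most of the gene came under a Pol II region after LPS.

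Tnfrsf1b (chr4:145212368-145246870), which encodes the TNF receptor TNFR2, had 2335 and 2980.3 Pol II tags after LPS, against 366 and 569.9 untreated, in the Nur77 line. The GFP line had 3942 and 3603 after LPS, against 328 and 420.2 untreated. The groups did not overlap, and the differences were 2.53 ± 0.26 (adjusted p = 0.00146) in the Nur77 line and 3.34 ± 0.26 (adjusted p = 0.000796) in the GFP line. The calls for Cd40 and Tnfrsf1b were made in all 8 fits that each left out 1 Pol II library.

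Tnfrsf8 (chr4:145267132-145315164) encodes CD30, a receptor best known on activated lymphocytes. It had 989.5 and 3299 Pol II tags after LPS, against 105 and 200.1 untreated, in the Nur77 line, and 1134 and 2008 after LPS, against 102 and 245 untreated, in the GFP line. Its differences were 3.63 ± 0.69 (adjusted p = 0.0116) and 3.25 ± 0.69 (adjusted p = 0.0259), with no overlap of groups. The call was lost without Nur77 untreated replicate 1 (3.16, adjusted p = 0.065) in the Nur77 line, and in the GFP line without untreated replicate 1 (2.62, 0.11), LPS replicate 1 (3.66, 0.074) or LPS replicate 2 (2.84, 0.10). Without peaks that overlap an input region it was 0.22 (adjusted p = 0.93) in the Nur77 line and 3.28 (0.22) in the GFP line.

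The Tnfrsf8 signal did not lie at the annotated Tnfrsf8 start. No Pol II, H3K27ac or HA peak covered that start in any library, and the nearest Pol II peak was 13.9 to 14.5 kb away and the nearest H3K27ac peak 14.3 to 19.98 kb away. Tnfrsf8 lies upstream of Tnfrsf1b on the same strand, from 20.3 to 68.3 kb before the Tnfrsf1b start. In the GFP line after LPS, Pol II regions ran from 18.9 to 38.1 kb and from 17.2 to 38.7 kb before the Tnfrsf1b start, and in Nur77 LPS replicate 2 a single region ran from 5.04 to 38.5 kb. The stretch between the genes also held Pol II regions, with 883 and 15.2 tags after LPS, against 65.7 and 117 untreated, in the Nur77 line, and 1575 and 2341 after LPS, against 117 and 178 untreated, in the GFP line; the 15.2 tags belong to the library whose single region was counted with Tnfrsf8. Most of the Pol II counted over Tnfrsf8 thus lay over the 3′ part of that gene, the part next to Tnfrsf1b, and whether it belongs to Tnfrsf8 transcription was not tested.

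**Figure D1:**
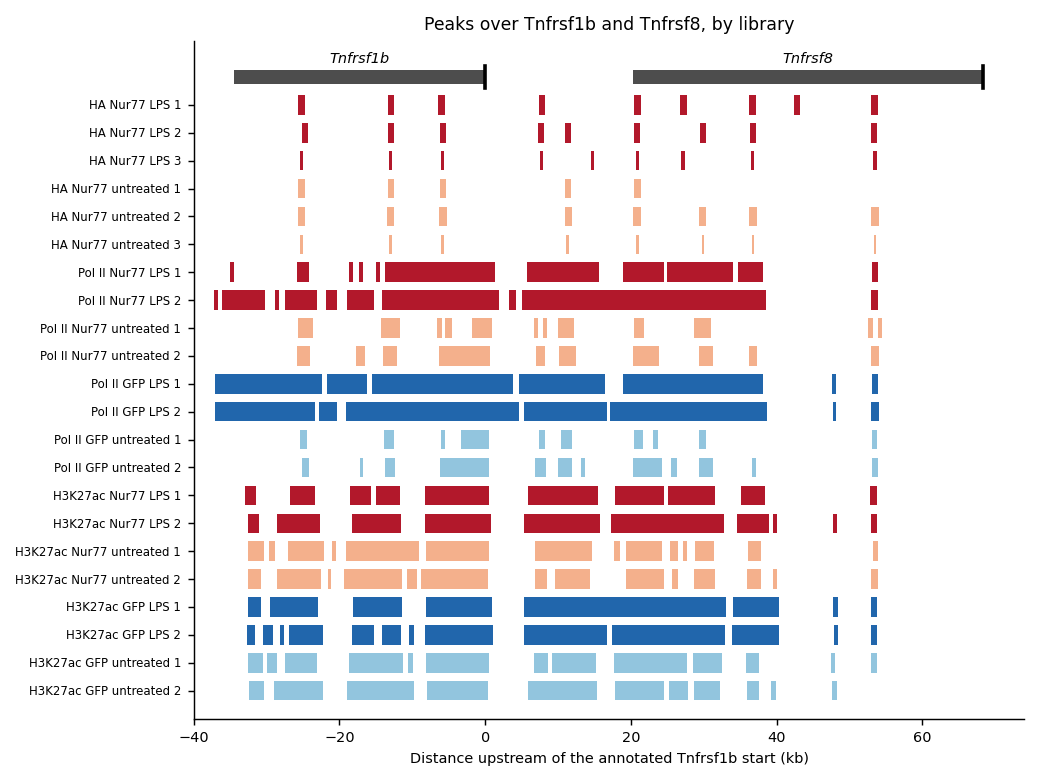
Peaks over Tnfrsf1b and Tnfrsf8 in each of the 22 ChIP libraries, drawn as bars by distance in kb upstream of the annotated Tnfrsf1b start, with LPS libraries above untreated ones in each line; vertical ticks mark annotated starts. Pol II regions widen after LPS between the genes and over the 3′ part of Tnfrsf8, while the Tnfrsf8 start carries no peak.

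Tnfrsf12a (the TWEAK receptor Fn14) had 1322 and 1125 Pol II tags after LPS, against 761 and 727 untreated, in the Nur77 line, and 1904 and 1282, against 905 and 746, in the GFP line. The difference passed the threshold in the GFP line (0.93 ± 0.23, adjusted p = 0.0395) and not in the Nur77 line (0.71 ± 0.23, adjusted p = 0.0615), and the lines' difference did not pass (-0.21 ± 0.32, adjusted p = 1.00). All of its Pol II tags lay in regions that also cover Hcfc1r1 and Thoc6. The GFP call held in 1 of 8 fits that left out a library, that without GFP LPS replicate 2; in the other 7 the difference was 0.64 to 1.07.

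Ltbr, the lymphotoxin beta receptor, and Tnfrsf11a, the RANK receptor that drives osteoclast formation, did not pass the test for Pol II. Ltbr had 338 and 374 tags after LPS, against 336 and 354 untreated, in the Nur77 line, and Tnfrsf11a had 447 and 441 against 383 and 419.9. Their log2 differences across both lines lay between -0.11 and 0.19. Tnfrsf14 (HVEM), a receptor of LIGHT, had 85.8 and 83.0 Pol II tags after LPS, against 137 and 114 untreated, in the Nur77 line (-0.56 ± 0.20, adjusted p = 0.0847). In the GFP line it had 103 and 111 against 171 and 141 (-0.54 ± 0.20, adjusted p = 0.125). The groups did not overlap, but neither difference passed, and nor did its H3K27ac differences of 0.16 ± 0.13 and 0.12 ± 0.13. Tnfrsf9 (4-1BB) had 830.2 and 922 Pol II tags after LPS, against 621 and 33.5 untreated, in the Nur77 line, and 851 and 69.3 after LPS, against 12.5 and 15.5 untreated, in the GFP line. Its differences of 2.58 ± 1.51 (adjusted p = 0.256) and 4.03 ± 1.51 (adjusted p = 0.132) did not pass. In some libraries as little as 6.07% of its tags lay inside the counting window, since some regions reached in from upstream of the gene. With tags prorated by overlap Tnfrsf9 passed in both lines, and without peaks over input regions it passed in the GFP line only.

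Among the death domain receptors, Fas, which triggers apoptosis when bound by Fas ligand, had 36.3 and 145 Pol II tags after LPS, against 0 and 7.56 untreated, in the Nur77 line. In the GFP line it had 531 and 253 after LPS, against 0 and 7.76 untreated. All 4 LPS libraries stood above all 4 untreated ones, but the gene was not tested because 2 untreated libraries had no peak. Where a peak in at least 2 libraries was enough, it passed in the GFP line (adjusted p = 0.030) and not in the Nur77 line (adjusted p = 0.065). Tnfrsf1a (TNFR1) had 108 and 160.4 Pol II tags after LPS, against 104 and 117 untreated, in the Nur77 line, and 149 and 141, against 139.7 and 139, in the GFP line, and its differences of 0.25 ± 0.23 and 0.06 ± 0.23 did not pass. Of the decoy receptors for TRAIL, Tnfrsf23 had 76.0 and 70.1 tags after LPS, against 141 and 181 untreated, in the Nur77 line, a fall of -1.12 ± 0.23 (adjusted p = 0.0145). In the GFP line it had 112 and 90.1 against 152 and 188 (-0.74 ± 0.23, adjusted p = 0.0774). The Nur77 call was lost without Nur77 untreated replicate 2 (-0.94, adjusted p = 0.10) or Nur77 LPS replicate 2 (-1.06, 0.063). Tnfrsf22 had 14.8 and 41.5 tags after LPS, against 73.4 and 110.1 untreated, in the Nur77 line (-1.81 ± 0.80, adjusted p = 0.148), and 53.7 and 60.6, against 124 and 661, in the GFP line (-2.31 ± 0.80, adjusted p = 0.109). Every LPS library was below the untreated ones of its line, but neither difference passed, and up to 80.9% of its tags lay in regions shared with Tnfrsf26.

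**Figure D2:**
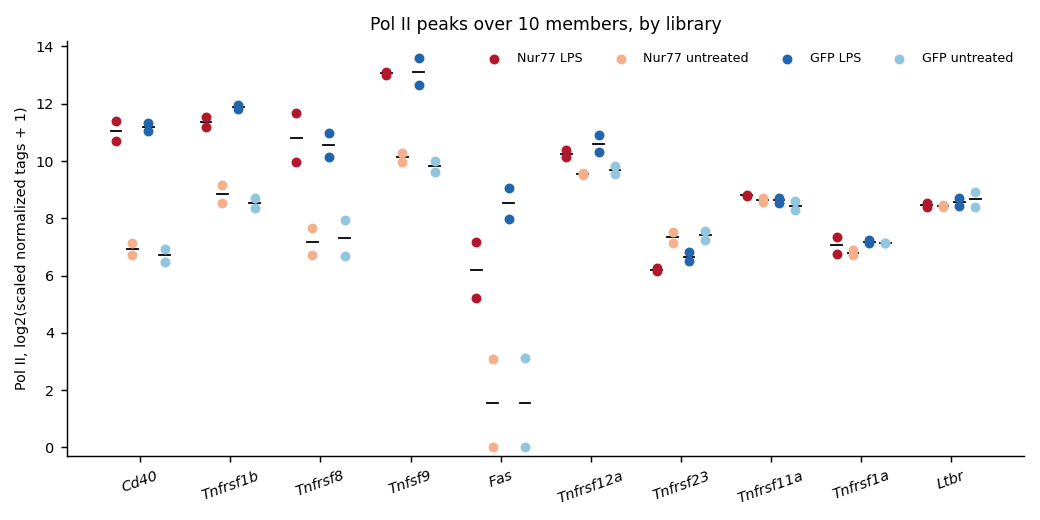
Pol II over 10 genes in each library as log2(tags + 1), in the order Nur77 LPS, Nur77 untreated, GFP LPS and GFP untreated; points are libraries and bars the mean of 2. Cd40, Tnfrsf1b, Tnfrsf8, Tnfsf9 and Fas are higher in every LPS library than in every untreated one, while the differences at Tnfrsf11a, Tnfrsf1a and Ltbr did not pass the test.

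Among the ligands, Tnfsf9 (4-1BBL, chr17:57105287-57107758), a costimulator of T cells, had 8272 and 8916 Pol II tags after LPS, against 1253 and 994 untreated, in the Nur77 line, and 12276 and 6464, against 1027 and 789, in the GFP line. The groups did not overlap, and the differences were 2.94 ± 0.32 (adjusted p = 0.00186) and 3.31 ± 0.32 (adjusted p = 0.00177). The regions reach far beyond the gene, so that only 16.5 to 41.5% of their tags lay inside the window, but they covered no other protein-coding gene. Up to 100% of these tags in a library lay in regions that overlap an input region, so without such regions the gene was not tested.

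Lta and Ltb, the lymphotoxin genes, had 66975 and 71992 Pol II tags after LPS, against 7586 and 8157 untreated, in the Nur77 line, and 59831 and 55664, against 4462 and 4707, in the GFP line. The same region was counted for both genes and also covers Tnf, Lst1, Nfkbil1 and Atp6v1g2, so its differences of 3.14 ± 0.25 (adjusted p = 0.000628) and 3.65 ± 0.25 (adjusted p = 0.000543) cannot be assigned to 1 gene. At most 14.9% of these tags lay inside the window of either gene. In all 8 libraries 100% of these tags lay in regions that overlap an input region, so without such regions neither gene was tested. A Pol II peak covered the Lta start in all 4 LPS libraries and in 0 of 4 untreated ones, whereas it covered the Ltb start in all 8.

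The other ligand genes did not pass the test for Pol II. Tnfsf13b (BAFF), the B cell survival factor, had 66.8 and 77.3 tags after LPS, against 96.8 and 129.8 untreated, in the Nur77 line, and 31.5 and 50.2, against 56.2 and 56.8, in the GFP line. Every LPS library was below the untreated ones of its line, with differences of -0.63 ± 0.30 (adjusted p = 0.167) and -0.50 ± 0.30 (adjusted p = 0.322). Tnfsf12 (TWEAK), Tnfsf13 (APRIL) and Tnfsfm13, a locus that spans both, share their regions with each other and with Senp3. In GFP LPS replicate 2 the region also reaches Cd68, Eif4a1 and Mpdu1 and holds 9924 tags, against 1502 in GFP LPS replicate 1.

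The lines were also compared directly for Pol II. By limma, 0 of the 21 members differed between the Nur77 and GFP lines after LPS, without LPS or in the LPS response itself (0.547%, 0.244% and 0.0673% of 11890 genes did). At an unadjusted p under 0.05 there were 6 members after LPS, 4 without LPS and 0 for the response. The nearest to the threshold after LPS was Tnfsf13 (-2.78 ± 0.77, adjusted p = 0.179), whose regions are shared as above, and for the response Tnfrsf1b had -0.81 ± 0.36 and Cd40 -0.35 ± 0.42. A p that misses the threshold does not show that the lines were alike.

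H3K27ac rose after LPS in both lines at Cd40, Tnfrsf8, Tnfrsf1b, Tnfsf9, Lta, Ltb and Fas, and fell in both at the decoy receptor Tnfrsf23 and the ligand Tnfsf14. In the Nur77 line 10 of 22 tested members gained H3K27ac and 3 lost it (58.5% of 12055 genes changed, 30.3% up and 28.3% down), and in the GFP line 10 gained and 4 lost it (54.3% changed, 29.0% up and 25.3% down). The members' median was 0.08 in the Nur77 line and 0.19 in the GFP line on the log2 scale, against 0.01 in each for all genes. Without scaling between libraries the median gene fell by 0.42 and 0.40, and the split became 5 up and 11 down in the Nur77 line and 7 up and 9 down in the GFP line.

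Cd40 had 148 and 154 H3K27ac tags after LPS, against 47.8 and 40.6 untreated, in the Nur77 line, and 168 and 145, against 27.9 and 35.4, in the GFP line. These are log2 differences of 1.76 ± 0.15 (adjusted p = 7.62e-05) and 2.27 ± 0.15 (adjusted p = 2.66e-05). Fas had 42.5 and 44.6 tags after LPS, against 7.37 and 7.68 untreated, in the Nur77 line (2.38 ± 0.19, adjusted p = 5.83e-05), and 56.2 and 53.7, against 9.34 and 7.28, in the GFP line (2.60 ± 0.19, adjusted p = 4.15e-05). Here the gene could be tested, and in each of the 8 libraries 1 region at its start carried the signal. Tnfsf9 had 2548 and 1743 tags after LPS, against 795 and 790.0 untreated, in the Nur77 line (1.41 ± 0.16), and 1853 and 1649, against 602 and 653, in the GFP line (1.48 ± 0.16). The LPS and untreated groups did not overlap for any of these genes, and each call stood in all 8 fits that left out a library. Up to 100% of the Tnfsf9 tags in a library lay over input regions, so without such peaks Tnfsf9 was not tested.

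Tnfrsf8 had 1134 and 1363 H3K27ac tags after LPS, against 408 and 414 untreated, in the Nur77 line, and 4333 and 2057, against 698 and 686, in the GFP line. The differences were 1.60 ± 0.29 (adjusted p = 0.00269) and 2.11 ± 0.29 (adjusted p = 0.000783). In GFP LPS replicate 1 a single region of 27.6 kb joins the gene with the stretch before Tnfrsf1b and holds 4004 of the 4333 tags. Without peaks over input regions the values were 1.59 (adjusted p = 0.12) in the Nur77 line and 0.23 (0.82) in the GFP line.

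Tnfrsf1b had 1435 and 1457 H3K27ac tags after LPS, against 1217 and 1208 untreated, in the Nur77 line (0.25 ± 0.05, adjusted p = 0.00518). It had 1769 and 1683, against 982 and 1043, in the GFP line (0.77 ± 0.05, adjusted p = 3.17e-05). Its LPS difference was smaller in the Nur77 line by -0.52 ± 0.08 (adjusted p = 0.030), the only 1 of 22 members whose response differed between lines, where 0.854% of genes did and 0.68% in this direction. The Nur77 line had more H3K27ac there than the GFP line without LPS (0.26 ± 0.05, adjusted p = 0.0114) and less after LPS (-0.25 ± 0.05, adjusted p = 0.0103), calls kept in 5 and 6 of the 8 fits that left out a library. The difference in response passed in 0 of the 8 limma fits that each left out 1 library, which gave -0.56 to -0.46 with adjusted p between 0.055 and 0.12, nor with a replicate block (adjusted p = 0.071). Without scaling the Nur77 LPS difference was -0.18, and with 10 kb flanks the difference between untreated lines was -0.01.

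Smaller differences were seen at other receptors. Tnfrsf11a gained in both lines, with 1640.5 and 1632 tags after LPS, against 1385 and 1422 untreated, in the Nur77 line (0.22 ± 0.06) and 1404 and 1349, against 1134 and 1232, in the GFP line (0.22 ± 0.06). Tnfrsf26, a mouse receptor next to the TRAIL decoys, had 754 and 747 against 621 and 582 in the Nur77 line (0.32 ± 0.05) and 1017 and 988 against 838 and 859 in the GFP line (0.24 ± 0.05), nearly all over input regions. Without scaling these values turned to -0.21 and -0.19 for Tnfrsf11a and to -0.11 and -0.17 for Tnfrsf26, so their direction rests on the scaling. Tnfrsf12a had 485 and 524 tags after LPS, against 406 and 371 untreated, in the GFP line (0.38 ± 0.09, and -0.03 without scaling), and 320.1 and 374, against 354 and 357, in the Nur77 line, where -0.04 ± 0.09 did not pass.

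The calls for Tnfrsf11a were lost in the GFP line without GFP untreated replicate 1 (0.16) or GFP LPS replicate 1 (0.16), and in the Nur77 line without Nur77 untreated replicate 1 (0.20) or either Nur77 LPS library (0.21 each). That for Tnfrsf26 in the GFP line was lost without GFP LPS replicate 1 (0.19). That for Tnfrsf12a was lost without GFP untreated replicate 2 (0.31) or GFP LPS replicate 2 (0.31).

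H3K27ac fell at the TRAIL decoy receptors, at Tnfrsf23 in both lines and at Tnfrsf22 in the GFP line. Tnfrsf23 had 191 and 187 tags after LPS, against 279.8 and 270.4 untreated, in the Nur77 line (-0.54 ± 0.07, adjusted p = 0.000517), and 241 and 263, against 355 and 367, in the GFP line (-0.52 ± 0.07, adjusted p = 0.000686). Up to 70.0% of the Tnfrsf23 tags in a library lay in regions that also cover Osbpl5. Tnfrsf22 had 82.6 and 80.7 against 96.0 and 102 in the Nur77 line, where -0.27 ± 0.10 did not pass (adjusted p = 0.0548), and 112 and 103 against 152 and 177 in the GFP line (-0.61 ± 0.10, adjusted p = 0.00224). The groups of both genes did not overlap within a line. With 10 kb flanks in place of 1 kb, Tnfrsf22 turned to 0.26 in the Nur77 line and 0.12 in the GFP line.

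Of the ligands, Tnfsf14 (LIGHT), which binds the lymphotoxin beta receptor and HVEM, had 9.42 and 8.01 H3K27ac tags after LPS, against 24.1 and 22.1 untreated, in the Nur77 line (-1.32 ± 0.23, adjusted p = 0.00231). It had 9.44 and 7.72 against 15.7 and 15.7 in the GFP line (-0.81 ± 0.23, adjusted p = 0.0215), a call lost without either GFP untreated library (-0.81 each) or GFP LPS replicate 2 (-0.69). With 10 kb flanks, which take in neighbouring peaks, its values turned to 0.54 and 0.59. Tnfsf18 (GITR ligand) had 408 and 352 against 262 and 276 in the Nur77 line (0.49 ± 0.09, adjusted p = 0.0031) and 684 and 612 against 564 and 607 in the GFP line, where 0.15 ± 0.09 did not pass; at least 87.1% of its tags lay over input regions, and without scaling the Nur77 value was 0.06.

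Lta and Ltb shared their H3K27ac region too, and in all 8 libraries 100% of their tags lay over input regions. Lta had 13289.9 and 13029 tags after LPS, against 2687 and 2707 untreated, in the Nur77 line (2.29 ± 0.06), and 13737 and 12931, against 2417 and 2174, in the GFP line (2.54 ± 0.06). In Nur77 LPS replicate 1 the region was split, so that Ltb had 3676 tags there and 13029 in replicate 2 (1.36 ± 0.48, adjusted p = 0.0422). The remaining calls sat close to the threshold. Tnfsf13 had 506 and 538 tags after LPS, against 638 and 1407 untreated, in the GFP line (-0.86 ± 0.31, adjusted p = 0.049), and -0.29 without GFP untreated replicate 2 and 0.28 with 10 kb flanks. Cd27 had 148 and 126, against 219 and 156, in the Nur77 line (-0.43 ± 0.16, adjusted p = 0.0468), in a region that also covers Tapbpl, and -0.19 without Nur77 untreated replicate 1 and 0.15 when tags were prorated by overlap. Of the fits that left out a library, 1 of 8 kept the Tnfsf13 call, 2 kept that of Cd27 and 2 that of Ltb in the Nur77 line.

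**Figure D3:**
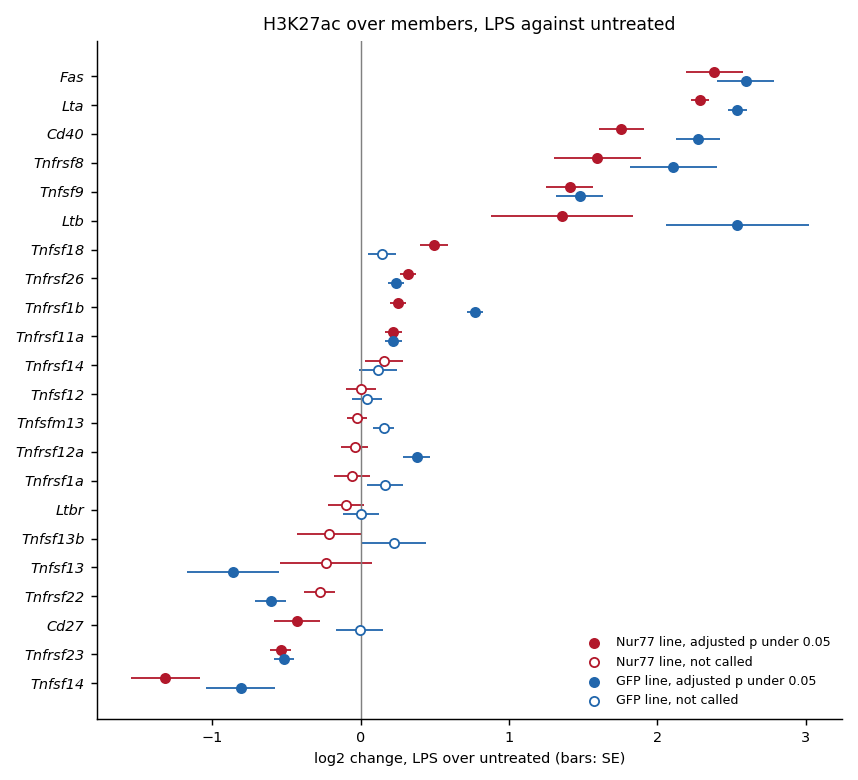
LPS over untreated log2 difference in H3K27ac tags with its SE for 22 genes, the Nur77 line above the GFP line for each gene; filled points have an adjusted p under 0.05. Fas, Cd40, Lta, Tnfrsf8 and Tnfsf9 stand between 1.41 and 2.60 in both lines, and Tnfsf14 and Tnfrsf23 are below 0 in both.

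Tnfrsf17 (BCMA), a receptor for BAFF and APRIL, was not tested, because it had an H3K27ac peak in 0 of 4 libraries after LPS, against all 4 untreated ones. Untreated it had 33.5 and 21.0 tags in the Nur77 line and 10.1 and 17.0 in the GFP line. Over all genes with a peak in the groups concerned, 2.19% of 13500 in the Nur77 line and 1.76% of 13507 in the GFP line had this pattern.

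The lines differed in H3K27ac at the TWEAK and APRIL locus, at Tnfsf18 and at the chromosome 7 receptors, where the Nur77 line had less, and at Tnfsf13b, where it had more. After LPS, 2 of 22 members had more H3K27ac in the Nur77 line and 9 less (32.6% of 12055 genes differed, 15.0% higher and 17.7% lower), and without LPS 4 had more and 6 less (25.0% differed, 13.0% higher and 12.0% lower). The members' median was -0.29 after LPS and -0.00 without LPS, against -0.00 and 0.01 for all genes. Without scaling the split was 0 more and 9 less after LPS, and 1 more and 6 less without LPS. The lines are 1 stable line each, so what Nur77 did and what the lines differ in otherwise cannot be told apart.

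Tnfsf13b stood out among the ligands in the other direction, with 61.0 and 66.1 H3K27ac tags after LPS in the Nur77 line, against 37.5 and 36.4 in the GFP line, and 73.5 and 74.1 without LPS, against 24.5 and 40.5. It was thus higher in the Nur77 line by 0.77 ± 0.22 after LPS (adjusted p = 0.0323) and 1.20 ± 0.22 without LPS (adjusted p = 0.00646), with no overlap between lines. Pol II over the gene pointed the same way (0.84 ± 0.30 and 0.98 ± 0.30) but did not pass (adjusted p = 0.276 and 0.364). The H3K27ac call after LPS was lost in 6 of the 8 fits that left out a library (0.71 to 0.83), and that without LPS in none.

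Tnfsf18, with the counts given above, was lower in the Nur77 line by -0.77 ± 0.09 after LPS (adjusted p = 0.000961) and -1.12 ± 0.09 without LPS (adjusted p = 0.000244). Tnfsf12 had 705 and 756 tags after LPS in the Nur77 line, against 1279 and 1311 in the GFP line (-0.83 ± 0.10), and 719 and 736 without LPS, against 1125 and 1407 (-0.79 ± 0.10). Tnfsfm13, which shares these regions, had 959.9 and 1070.2 against 1606 and 1656 after LPS (-0.69 ± 0.07) and 1027 and 1035 against 1525 and 1407 without LPS (-0.51 ± 0.07). Up to 100% of the tags of Tnfsf12 and Tnfsfm13 in a library lay over input regions, so without such peaks neither gene was tested. The neighbouring receptors Tnfrsf22, Tnfrsf23 and Tnfrsf26, all on chromosome 7, were each lower in the Nur77 line in both states, by -0.39, -0.41 and -0.42 after LPS and by -0.72, -0.39 and -0.50 without LPS. Some Tnfrsf23 tags lay in regions shared with Osbpl5, as given above. The Tnfrsf22 call after LPS was lost without GFP LPS replicate 1 (-0.32), Nur77 LPS replicate 1 (-0.40) or Nur77 LPS replicate 2 (-0.37), and the Tnfrsf23 call without LPS was lost without Nur77 untreated replicate 2 (-0.36). Without peaks over input regions Tnfrsf26 was -0.06 after LPS and 0.17 without LPS.

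Tnfrsf11a was higher in the Nur77 line by 0.25 ± 0.06 in both states, each call being kept in 5 of the 8 fits that left out a library (0.21 to 0.29 after LPS and 0.19 to 0.31 without LPS). After LPS Tnfrsf8 (-1.26 ± 0.29, adjusted p = 0.0149) and Tnfrsf12a (-0.54 ± 0.09, adjusted p = 0.00386) were lower in the Nur77 line, and without LPS Lta was higher (0.23 ± 0.06, adjusted p = 0.0317; kept in 3 of 8 fits that left out a library, 0.16 to 0.31). In the other state each missed the threshold, and whether these differences changed with LPS did not pass a test (adjusted p = 0.611, 0.206 and 0.258). Without peaks over input regions the Tnfrsf8 value turned to 0.60, and the call was lost without Nur77 LPS replicate 1 (-1.12). It was -0.71 without GFP LPS replicate 1, the library of the joined 27.6 kb region described above, and -1.81 without GFP LPS replicate 2. Cd40, Fas, Ltbr and Tnfrsf1a did not differ between lines in either state by this test, with values from -0.33 to 0.47.

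**Figure D4:**
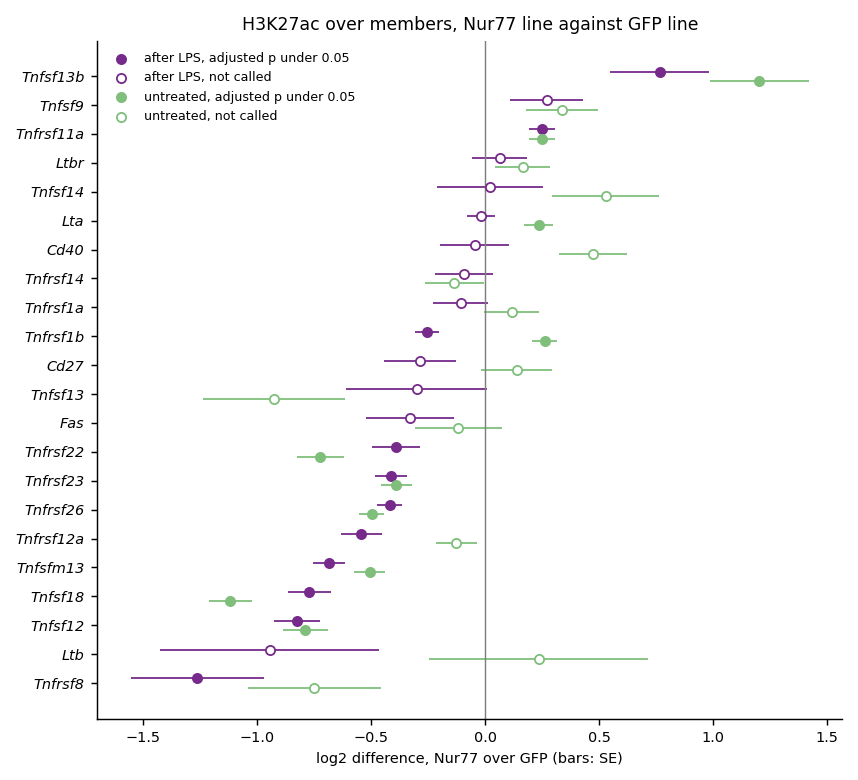
Nur77 line over GFP line log2 difference in H3K27ac tags with its SE for 22 genes, after LPS and without LPS; filled points have an adjusted p under 0.05. Tnfsf13b is above 0 in both states and Tnfsf18, Tnfsf12, Tnfsfm13, Tnfrsf22, Tnfrsf23 and Tnfrsf26 are below 0 in both.

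HA-Nur77 itself was compared with and without LPS in the Nur77 line. Summed over each gene, 2 of 12 tested members, Tnfrsf8 and Tnfsf10, had more HA signal after LPS and 0 had less by limma (2.51% of 5103 genes changed, 1.82% up and 0.686% down); 4 of the 12 had an unadjusted p under 0.05. The same-numbered HA libraries of the 2 states deviated together, and with the replicate number as a block 5 members passed, Fas, Tnfrsf8, Tnfsf4 and Tnfsf10 upward and Tnfrsf1b downward, where 19.6% of genes did, 10.9% up and 8.7% down.

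Tnfrsf8 had 332, 337 and 312 HA tags after LPS, against 28.2, 138 and 93.4 untreated, a difference of 2.17 ± 0.47 (adjusted p = 0.0399). Tnfsf10 had 102, 58.6 and 101 after LPS, against 32.5, 30.3 and 24.6 untreated (1.51 ± 0.34, adjusted p = 0.046). The states did not overlap for either gene. Each call was kept in 1 of 6 fits that left out a library: Tnfrsf8 without untreated replicate 2 and Tnfsf10 without LPS replicate 2. The other 5 gave 1.51 to 2.36 for Tnfrsf8 and 1.38 to 1.59 for Tnfsf10, and without both replicate 3 libraries the values were 2.38 (adjusted p = 0.21) and 1.26 (0.33).

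Fas had 158, 125 and 142 HA tags after LPS, against 63.1, 20.2 and 80.1 untreated, and did not pass (1.56 ± 0.45, adjusted p = 0.104). Tnfrsf1b had 722, 538 and 648 after LPS, against 1217, 812 and 1287 untreated (-0.78 ± 0.20, adjusted p = 0.0715). Tnfsf4 had 170.5, 96.5 and 268 against 77.8, 71.0 and 151 (0.79 ± 0.40, adjusted p = 0.34). The states did not overlap for Fas or Tnfrsf1b and did for Tnfsf4. Tnfrsf11a had 189.9, 242 and 193 against 156, 257 and 245, and Cd40 63.3, 53.6 and 74.3 against 68.0, 50.5 and 49.5, without a difference that passed.

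Since HA peaks are narrow, overlapping peaks of the 6 libraries were also merged into sites. The family held 47 of 42505 sites, over 23 genes, and 15 of them had a peak in all 6 libraries. Of 38 sites of genes with an annotated start, 8 lay within 1 kb of it. Of the 15 sites, 3 passed the test, each with more HA after LPS (4.64% of 11234 sites changed, 3.28% up and 1.35% down), and with the replicate block 5 had more and 3 less (40.4% of sites changed).

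The called sites were in Tnfrsf8, Tnfsf10 and Cd40. The Tnfrsf8 site at chr4:145267213-145268270, at the 3′ end of the gene and 47423 bases from its start, had 98.9, 118 and 92.6 tags after LPS, against 27.1, 41.4 and 30.3 untreated (1.63 ± 0.27, limma adjusted p = 0.0148). The Tnfsf10 site at chr3:27326179-27327195, 9610 bases into the gene, had 99.99, 58.4 and 93.1 against 31.1, 28.0 and 26.4 (1.49 ± 0.28, adjusted p = 0.0223). The Cd40 site at chr2:165054797-165057424, which spans the 5′ end of the gene, had 62.0, 53.4 and 80.2 against 31.7, 21.9 and 31.7 (1.17 ± 0.28, adjusted p = 0.0449). None of these sites overlapped between states. The Cd40 interval is too long for HA peaks, at most 1017 bases on average, to all overlap each other. It thus merges peaks at different positions, and which of them differed between states was not tested. A further Tnfrsf8 site, at chr4:145283131-145284147, had 102.7, 95.5 and 140.0 after LPS, against 0, 24.4 and 29.0 untreated, and was not tested.

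A second Cd40 site, at chr2:165061280-165062296, had no peak in any LPS library and 33.5, 24.8 and 21.3 tags untreated, so the values of the 2 Cd40 sites ran in opposite directions, the second untested, and the sum over the gene differed little. Tnfrsf1b held 3 sites in its body. Those at chr4:145221134-145222599 and chr4:145233411-145234427 had less HA after LPS in every library than in any untreated one (-0.98 ± 0.35 and -0.82 ± 0.32, adjusted p = 0.142 and 0.174, passing with the block), while that at chr4:145240460-145241567 had 121, 137 and 96.6 tags after LPS, against 131, 124 and 98.1 untreated (0.01 ± 0.27). The middle site alone held 482, 328 and 503 tags after LPS, against 798, 520.2 and 1058 untreated.

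At promoters, the Fas window printed above lay under a site with 88.6, 102 and 78.5 HA tags after LPS, against 19.98, 0 and 21.9 untreated, and the Tnfsf13b window under a site with 52.7, 50.6 and 68.1 against 19.98, 35.3 and 23.3 (1.12 ± 0.29, adjusted p = 0.0526). The internal Tnfrsf9 window had 59.2, 38.2 and 46.1 tags after LPS and no peak in any untreated library. The Tnfsf14 window had no peak in any LPS library and 41.7, 48.2 and 52.8 tags untreated. The Ltbr window did not pass, with 39.7, 48.4 and 55.3 after LPS, against 30.0, 34.0 and 48.5 untreated (0.36 ± 0.28, adjusted p = 0.523). Among all sites, 4.62% had a peak in all 3 LPS libraries and no untreated one, as did 2 of the family's 47, at Tnfrsf9 and Tnfrsf13b, and 0.654% had the reverse, as did 2 of 47, at Tnfsf14 and Cd40.

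**Figure D5:**
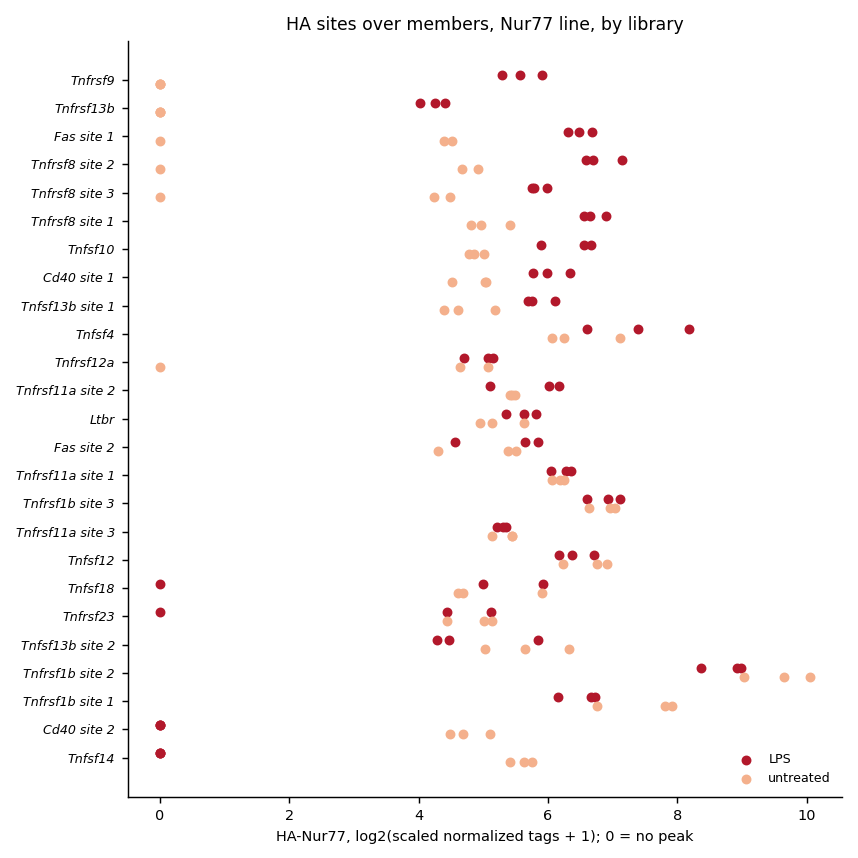
HA signal as log2(tags + 1) at 25 sites of the family, with 3 LPS libraries and 3 untreated libraries a site; points are libraries and 0 means that no peak was called. The sites of Tnfsf10, Fas (start) and Tnfrsf8 stand higher after LPS, and the Tnfsf14 start and the second Cd40 site have peaks in untreated libraries only.

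Side by side, Cd40, Fas and Tnfrsf8 had higher values after LPS in Pol II, H3K27ac and HA at a site. For Fas neither Pol II nor that HA site was tested. HA summed over Fas did not pass without the replicate block (limma adjusted p = 0.013 with it). Tnfsf14 had lower values in H3K27ac and in HA at its start, an untested site. Other genes ran in different directions. Tnfrsf1b had more Pol II and H3K27ac after LPS, while its HA sum was lower (-0.78 ± 0.20) and passed only with the block. At Tnfsf13b Pol II was lower and HA at its start higher, neither passing the main test. Cd40 also had an untested HA site with peaks only in untreated libraries. At Tnfsf10 HA was higher while H3K27ac was called in 1 of 8 libraries, with 8.23 tags in Nur77 LPS replicate 2, and Pol II in 0 of 8.

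The signalling genes below these receptors were read from a list of 33. All 33 could be tested for Pol II, and 11 were higher and 1 lower after LPS in the Nur77 line and 12 higher and 0 lower in the GFP line, against the shares of all genes given above. The adaptor Traf1 (4.02 ± 0.19 in the Nur77 line and 3.92 ± 0.19 in the GFP line), the inhibitor of NF-kB signalling Tnfaip3 (3.92 ± 0.34 and 4.08 ± 0.34) and, in the GFP line, the inhibitor Nfkbia (3.58 ± 0.31) had the smallest p-values, with Birc3 (2.04 ± 0.20), an inhibitor of apoptosis, in the Nur77 line. For H3K27ac 17 were higher and 4 lower after LPS in the Nur77 line (30.3% and 28.3% of all genes) and 19 and 5 in the GFP line (29.0% and 25.3%). In the Nur77 line against the GFP line, H3K27ac was higher at 4 and lower at 6 after LPS (15.0% and 17.7% of all genes), and higher at 12 and lower at 2 without LPS (13.0% and 12.0%). For Pol II 0 of 33 differed between lines in either state or in their response by limma (4, 1 and 1 with an unadjusted p under 0.05 after LPS, without LPS and for the response). The H3K27ac response of Nfkbia was smaller in the Nur77 line (-0.60 ± 0.09, adjusted p = 0.029). For HA, 24 were tested and 2 were higher after LPS (1.82% of all genes), Nfkb1 (2.74 ± 0.31, adjusted p = 0.0040) and Traf2 (1.33 ± 0.30, adjusted p = 0.048). With the replicate block 6 were higher and 3 lower (10.9% and 8.7% of all genes).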

How the data were processed

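Per the file headers, HOMER called peaks in each library alone, in factor style for HA and as stitched regions for Pol II and H3K27ac, without input; 3 H3K27ac libraries were called with a local filter that the other 5 did not use. HISAT2 2.1.0 and mm10 are the aligner and build that the submitters' processing notes name; no HOMER version is given in the sources used here. The value used is the deposited normalized tag count, a signal given per 10 M mapped tags (M for mega) by the authors' caller; it is not a whole read count, so no count model was used. Tags of peaks overlapping each gene span plus 1 kb were summed per library, scaled by trimmed means of M-values (30% and 5% trims) and tested as log2(tags + 1) with limma 3.58.1 in R 4.3.3 (trend), all libraries of a target in 1 fit. The scaling and limma steps were also run on simulated gene values with known changes and independent noise in each library. Peak overlap, summing of tags, merging of sites and motif matching were not part of that simulation. Alternatives were a replicate block, no scaling, peaks in at least 2 libraries, a pseudocount of 10, tags prorated by overlap, 10 kb flanks, peaks of at least 20 tags, peaks over input regions left out, and each library left out.

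Named are all 40 members, with library values for each member called and for those with the most tags per target, and the 3 pathway genes with the smallest p. Members and lists were chosen with earlier results of these data known. Sites of merged HA peaks, and fits without HA replicate 3 or without the 3 H3K27ac libraries, were added after the data were seen. For HA, residuals of same-numbered libraries correlated at 0.38 to 0.64 and those of different numbers at -0.49 to 0.05, although nothing in the labels pairs them.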

Additional observations from a re-analysis of the deposited data

Results flagged for a closer look

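The LPS response of H3K27ac over Tnfrsf1b, the gene of TNFR2, differed between the lines by an interaction test: Nur77 minus GFP was -0.52 ± 0.08 on the log2 scale (limma adjusted p = 0.030). H3K27ac was higher after LPS in both lines, with 1435 and 1457 tags, against 1217 and 1208 untreated, in the Nur77 line, and 1769 and 1683, against 982 and 1043, in the GFP line. The value was negative in all 17 alternatives and passed the threshold in 3 of them.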

How the results depend on the processing

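Counts of members that passed the test moved by over 1.5 times as follows. For HA genes (2 in the report), a replicate block gave 5, no scaling 1, peaks over input regions left out 1, and 0 came with a peak required in at least 2 libraries, 10 kb flanks, peaks of at least 20 tags or both replicate 3 libraries left out; for HA sites (3) the block gave 8, no scaling 0, at least 2 libraries 6 and both replicate 3 libraries left out 0. For Pol II, 10 kb flanks gave 11 in the Nur77 line (7), leaving out input regions gave 4 in the Nur77 line and 4 in the GFP line (7), and prorated tags gave 1 between untreated lines (0). For H3K27ac, leaving out input regions gave 5 for LPS in the Nur77 line (13), 7 in the GFP line (14), 2 between lines after LPS (11) and 3 without LPS (10), and leaving out the 3 libraries with the local filter gave 8, 8, 5 and 5, a fit with 1 library in each of 3 groups whose 1 residual degree of freedom comes from the 2 Nur77 LPS libraries, so that the lone libraries are assumed to vary like them. The H3K27ac difference in response (1) was 0 with the block, without scaling, with peaks of at least 20 tags, without input regions and without the 3 libraries, and 2 with 10 kb flanks. Leaving out each library in turn gave 0 to 2 for HA genes, 0 to 6 for HA sites, 6 to 8 for Pol II in each line, 0 to 2 between lines after LPS, 0 without LPS and 0 for the response, and for H3K27ac 10 to 12 in the Nur77 line, 11 to 13 in the GFP line, 6 to 11 between lines in either state and 0 to 1 for the response. The causes were not tested; the HA sites, the fits without both HA replicate 3 libraries and those without the 3 H3K27ac libraries were chosen after the data were seen.

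Of the values of single genes under alternatives, 3381 stayed on their side of the threshold, 159 lost a call and 64 gained one. A further 26 turned direction with a call in the main or the alternative fit. Values called in neither fit are among the 3381 whatever their direction. Without scaling, H3K27ac after LPS turned in the Nur77 line at Tnfrsf11a (-0.21), Tnfrsf1b (-0.18), Tnfrsf26 (-0.11) and Tnfsf12 (-0.43), and in the GFP line at Tnfrsf11a (-0.19), Tnfsf18 (-0.26), Ltbr (-0.40), Tnfrsf26 (-0.17), Tnfsfm13 (-0.25), Tnfsf12 (-0.37) and Tnfrsf12a (-0.030). With 10 kb flanks it turned in the Nur77 line at Tnfrsf22 (0.26), Tnfsfm13 and Tnfsf13 (0.21 each) and Tnfsf14 (0.54), in the GFP line at Tnfrsf22 (0.12), Tnfsf13 (0.28), Tnfsf12 (-1.44) and Tnfsf14 (0.59), between untreated lines at Tnfrsf1b (-0.011) and in the response at Tnfsf12 (1.40), and Pol II in the GFP line at Cd27 (-2.87). Prorated tags turned Cd27 in the Nur77 line (0.15). Leaving out input regions turned Tnfrsf26 in the Nur77 line (-0.022) and between untreated lines (0.17), and Tnfrsf8 between lines after LPS (0.60).

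Over all genes, calls moved from 128 to 1000 for HA with the replicate block and to 11 without scaling, 3 with at least 2 libraries, 28 with peaks of at least 20 tags and 6 without replicate 3; HA sites moved from 521 to 4536 with the block, 2724 with at least 2 libraries, 6 without scaling and 1 without replicate 3. For Pol II the block raised them from 2954 to 4600 in the Nur77 line and from 1665 to 3070 in the GFP line, and from 65 to 271 and 29 to 71 between lines after LPS and without LPS. Without the 3 H3K27ac libraries they fell from 7057 to 4612 in the Nur77 line, 6551 to 2586 in the GFP line, and 3932 to 1364 and 3011 to 796 between lines. Residuals of same-numbered Pol II libraries correlated at 0.21 to 0.46, those of H3K27ac libraries at -0.06 to 0.10, and nothing in the labels pairs them; with the block Pol II also passed at Tnfrsf12a (adjusted p = 0.015), Tnfrsf14 (0.045) and Tnfrsf22 (0.041) in the Nur77 line and at Tnfrsf22 (0.028) in the GFP line. Depth of 6.41 to 18.25 M mapped tags in HA libraries and 2 or 3 libraries a group limit the differences that can be detected.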
